A study of Sus scrofa with 36 samples.

Results

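Gene expression in the adrenal glands of Large White × Creole crossbred pigs (F1) kept at 24 °C was compared with the mid-parent value, which is the mean of the group means of the Large White (LW) and Creole (CR) pigs kept at the same temperature. The comparison used 18 of the 36 arrays of the series, each from a single pig, with 3 groups of 6 chosen by their titles. All pigs were castrated males that entered a climatic room at 11 weeks of age, and those of the 24 °C groups were slaughtered before the temperature of the room was raised. The other 18 pigs, again 6 per breed, were slaughtered after 4 or 5 days of heat, given as 30 °C in the sample labels and as 32 °C in the design text, and they serve here only to show whether a value recurred. Pigs came in 3 blocks of 4 littermates per breed and were housed by breed in pens of 3. Pen mates came from different blocks, so by this layout the 6 pigs of a group came from 3 litters. Litter, pen, day of slaughter and parents of each pig are not given with the arrays. The tests thus treat related pigs as independent, and the p-values measure only the spread between these pigs.

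The first generation of a cross carries an allele of each parental breed at every locus where the breeds are fixed for different alleles. Where both alleles add up, the amount of a transcript in the cross lies at the mean of the parental amounts, and under dominance it lies near one of the parents. The mid-parent value used here is a mean of log2 levels, which is below the log2 of the mean amount wherever the parents differ, and the more so the larger their difference. Expression outside the range of both parents is called over- or underdominance. The adrenal gland joins a cortex, which makes steroid hormones from cholesterol under the control of ACTH, to a medulla, whose chromaffin cells make catecholamines. Both tissues were present in every group at 24 °C, since the mean log2 level of 18 steroid synthesis genes lay between 13.68 and 14.02 in the 18 pigs and that of 20 chromaffin genes between 11.59 and 12.51. By the study's methods the glands were taken whole and cut, and RNA came from a limited weight of tissue. The share of cortex and medulla in each sample was not measured. In such tissue, fewer cells of a type and less RNA per cell cannot be told apart.

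The cross departed from the mid-parent value at few probes. With limma and Benjamini-Hochberg adjustment over all 45348 probes, 10 probes passed a false discovery rate (FDR) of 0.05, which is 0.0221% of those tested, and the cross was higher at 3 (0.00662%) and lower at 7 (0.0154%) of them. The split was not stable, with 7 higher and 4 lower without slide 2, 13 higher and 7 lower without CR pig 4, and 5 of each without CR pig 1. The parental breeds themselves differed at 1561 probes (3.44%), of which 929 were higher in LW (2.05%) and 632 in CR pigs (1.39%). The cross differed from LW pigs at 18 probes (0.0397%) and from CR pigs at 279 (0.615%). It lay outside both parents, with an adjusted p under 0.05 against each and the same direction, at 4 probes (0.00882%), below both at 3 (0.00662%) and above both at 1 (0.00221%). The count outside both was 0 with slide as a fixed block, 0 without slide 1 and 0 without any one of 9 of the 18 pigs, and 2 of the 4 probes read the same transcript. At an unadjusted p under 0.05 the mid-parent contrast held 3763 probes (8.3%), 1800 higher (3.97%) and 1963 lower (4.33%), where a p-value with no true differences would give 2267.4. The 95% confidence interval of the cross minus the mid-parent value had a median half-width of 0.176 on the log2 scale.

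The probes are 60 bases long, and the first 30 bases of those that lay outside both parents, together with the PNPLA3 probe, are shown to identify what hybridised. The first pair of probes shared 59 of 60 bases. The single difference between them, A18C, is counted from the 5′ end of the probe with the base of the MLKL probe first, and it is written in capitals.
MLKL: acgtgttgaaactgaaaAtgagtccctgaa
TC612827: acgtgttgaaactgaaaCtgagtccctgaa
TC622518: ttgccctgtacttggtgagtcagggtctgc
A_72_P118156: tctgaaaactggcaacgcctaacccataag
PNPLA3: ccggcgcttcccgttttgctgttatctgaa
Names that begin with TC are those of transcript clusters in the annotation of the array, and the probe named A_72_P118156 has no description there. TC612827 is described as mixed lineage kinase domain-like, the protein that MLKL encodes. Because the MLKL and TC612827 probes share nearly all their bases, they are 1 observation of the same transcript rather than a replicate of each other.

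MLKL, the pseudokinase that permeabilises the plasma membrane in necroptosis, gave a lower signal in the cross than in either parent. Its RefSeq position on Sscrofa11.1 is chr6:12923846-12951176. The normalised log2 intensity of the MLKL probe ran from 6.27 to 7.24 in the 6 F1 pigs, with a median of 6.39. In LW pigs it ran from 6.87 to 8.68 with a median of 8.29, and in CR pigs from 7.83 to 8.68 with a median of 8.34. The F1 and CR pigs did not overlap, and 1 of the 6 LW pigs, at 6.87, lay within the range of the cross while the next lowest stood at 8.1. The cross fell by 1.59 on the log2 scale against the mid-parent value (SE 0.214, limma adjusted p = 0.0115), a 3.01-fold decrease. The difference from LW pigs was -1.52 (adjusted p = 0.0403) and that from CR pigs -1.66 (adjusted p = 0.00419), whereas LW and CR pigs differed by -0.15 (adjusted p = 0.837). The TC612827 probe gave the same picture at a brighter level, from 6.46 to 7.75 in the cross, from 7.34 to 9.08 in LW and from 8.28 to 9.28 in CR pigs. It fell by 1.71 against the mid-parent value (SE 0.236, limma adjusted p = 0.0115).

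MLKL in the heat-exposed pigs did not repeat the departure from the mid-parent value. There the cross spread from 5.46 to 8.85, with 4 pigs at or below 6.23 and the other two at 7.62 and 8.85. The LW pigs, high at 24 °C, ran from 5.73 to 6.53, below all 6 LW pigs at 24 °C, and the CR pigs ran from 7.86 to 8.13. The cross minus mid-parent difference was -0.31 in these pigs (unadjusted p = 0.368), and the change of that difference between the temperatures was 1.28 (unadjusted p = 0.00464, limma adjusted p = 0.883). Levels near 6 and near 8 both occurred within the LW and within the F1 pigs of the series, and CR pigs held only the higher level at both temperatures. The litter of each pig is not given, so its part in these levels was not tested. The values are hybridisation signals, and whether every allele of the transcript hybridises alike to these probes was not tested.

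TC622518 lay below both parents in every pig. Its description names only a weak match to an algal agmatine iminohydrolase, and no gene is assigned to it. The cross ran from 6.21 to 7.22 with a median of 6.7, LW pigs from 7.41 to 7.97 and CR pigs from 7.24 to 8.09. The cross did not overlap either parent, although the highest F1 pig and the lowest CR pig nearly met, and the parents overlapped each other. The cross fell by 0.95 (SE 0.136, limma adjusted p = 0.0132), while the parental means differed by 0.01. Heat-exposed pigs gave -0.69 (unadjusted p = 0.000744, adjusted p = 0.286), with the cross at 6.3 to 7.54, LW pigs at 7.41 to 8.27 and CR pigs at 6.99 to 7.89.

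A_72_P118156 was the only probe called above both parents. It stood at 9.99 to 10.36 in 5 F1 pigs and at 8.83 in the remaining pig, against 8.56 to 9 in LW and 8.54 to 9.15 in CR pigs. That 1 pig lay among the parents and the other 5 lay clear of all 12 parental pigs. The cross rose by 1.10 (SE 0.17, limma adjusted p = 0.0313), a 2.14-fold increase. In heat-exposed pigs 5 of the 6 F1 pigs lay between 8.36 and 8.77 and 1 at 9.93, and the difference was 0.13 (unadjusted p = 0.426, adjusted p = 0.85). The high level was thus seen in 5 of 6 F1 pigs at 24 °C and in 1 of 6 after heat, and the difference between the temperatures did not pass the FDR (limma adjusted p = 0.75).

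**Figure D1:**
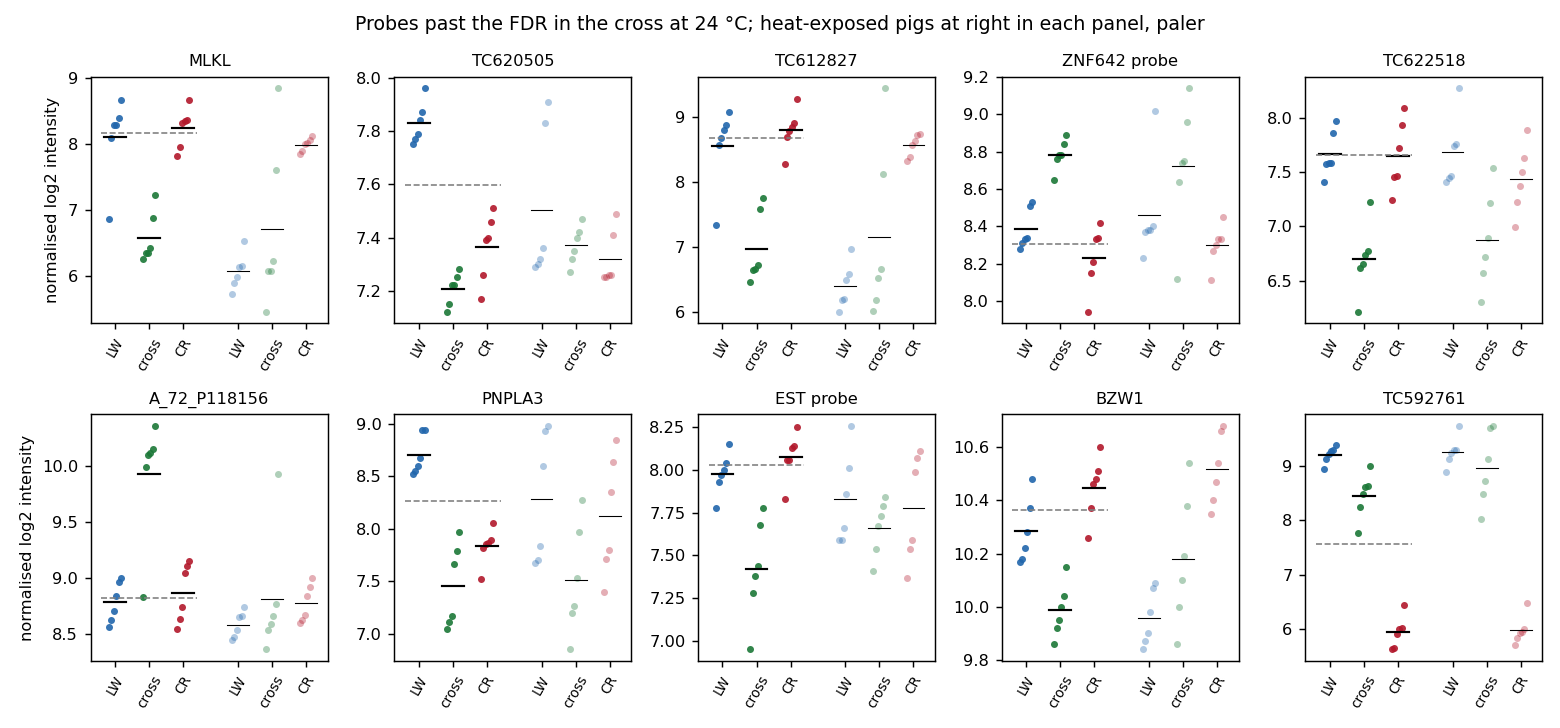
Normalised log2 intensity of each pig (points) and the group mean (bars) at the 10 probes where the cross passed the FDR against the mid-parent value, which is the dashed line. The 3 groups at 24 °C stand at left in each panel and the heat-exposed groups, paler, at right, and the y axes differ between panels. At MLKL the 6 F1 pigs at 24 °C sit between 6.27 and 7.24 while heat-exposed LW pigs are as low.

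PNPLA3, which encodes a lipid-droplet hydrolase also called adiponutrin, fell below the mid-parent value and lay on the side of the lower parent. Its RefSeq position is chr5:5075608-5092599. The cross ran from 7.04 to 7.97 with a median of 7.41, CR pigs from 7.52 to 8.05 with a median of 7.85, and LW pigs from 8.52 to 8.94 with a median of 8.64. F1 and LW pigs did not overlap and F1 and CR pigs did. The departure was -0.81 (SE 0.129, limma adjusted p = 0.0373). PNPLA3 was higher in LW than in CR pigs by 0.87 (adjusted p = 0.00355), and the cross differed from LW pigs by -1.25 (adjusted p = 0.00273) and from CR pigs by -0.37 (adjusted p = 0.302). Heat-exposed pigs gave -0.69 (unadjusted p = 0.017, adjusted p = 0.505), and the second, dimmer PNPLA3 probe gave -0.18 at 24 °C. With the mean of both PNPLA3 probes the difference was -0.50 and did not pass the FDR (limma adjusted p = 0.147). Within slides the PNPLA3 difference ranged from -1.21 to -0.29.

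BZW1, a regulator of start codon choice in translation, was called at 1 of its 14 probes. That probe ran from 9.86 to 10.15 in the cross, from 10.17 to 10.48 in LW and from 10.26 to 10.6 in CR pigs, so the 6 F1 pigs lay just below all 12 parental pigs. The cross fell by 0.38 (SE 0.061, limma adjusted p = 0.0373), and the brightest BZW1 probe gave -0.12. The cross was below the mid-parent value at 13 of the 14 probes, 5 of them with an unadjusted p under 0.05. In heat-exposed pigs the LW group was low at the called probe, from 9.84 to 10.09, and the difference there was -0.06 (unadjusted p = 0.507). All 14 probes were below the mid-parent value after heat, 7 with an unadjusted p under 0.05, and the brightest gave -0.21 (unadjusted p = 0.0014). The RefSeq position of the gene is chr15:104525900-104543795.

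A zinc finger probe and 3 probes without a gene completed the list. The probe named ZNF642, an older symbol that the reference tables do not hold, ran from 8.65 to 8.89 in the cross, above 8.28 to 8.53 in LW and 7.94 to 8.42 in CR pigs. It rose by 0.48 (SE 0.0661, limma adjusted p = 0.0115), and heat-exposed pigs gave 0.35 (unadjusted p = 0.0129). TC620505, described only by a weak bacterial match, lay with the lower CR parent: the cross ran from 7.12 to 7.28, CR pigs from 7.17 to 7.51 and LW pigs from 7.75 to 7.96. Its difference from the mid-parent value was -0.39 (SE 0.0535, limma adjusted p = 0.0115), and after heat it was -0.04. A probe for an expressed sequence tag of unknown function ran from 6.95 to 7.78 in the cross, from 7.78 to 8.15 in LW and from 7.83 to 8.25 in CR pigs, a difference of -0.61 (SE 0.0981, limma adjusted p = 0.0373) that was -0.14 after heat.

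TC592761, described as coiled-coil domain containing 17, lay on the side of the higher parent. LW pigs ran from 8.95 to 9.39 and CR pigs from 5.62 to 6.44, a parental difference of 3.28 (limma adjusted p = 5.53e-09). The cross ran from 7.77 to 9 with a median of 8.55, above every CR pig and mostly below the LW pigs. It rose above the mid-parent value by 0.89 (SE 0.145, adjusted p = 0.0401), and heat-exposed pigs gave 1.34 (adjusted p = 0.0132). This departure rests on the log2 scale: against the log2 of the mean unlogged parental level, an alternative chosen after seeing the data, the cross differed by 0.11 with no test made. At the other 9 called probes that alternative moved the difference by less than the spread of the F1 pigs. Of the 10 probes, this was the only one that also passed the FDR in the heat-exposed pigs, where 20 probes passed in all (0.0441%), 6 higher (0.0132%) and 14 lower (0.0309%). All 10 kept their sign there, 4 with an unadjusted p under 0.05, against 8.17% of all probes. Littermates were divided between the temperatures, so this is no repeat in other families. The difference between the contrasts at the 2 temperatures passed the FDR at 0 probes by limma, with 2546 at an unadjusted p under 0.05 (5.61%).

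The calls depended on which pigs were in the fit. A slide carries several arrays, and slide 1 held 2 LW pigs but no F1 pig at 24 °C. Without slide 1, 0 of the 10 calls passed the FDR by limma, while all 10 kept their sign and an unadjusted p under 0.05 (3286 of all probes had one). With slide as a fixed block 2 of the 10 passed and with slide as a random block all 10, among 15 probes. On each of slides 2 to 5, which held all 3 breeds, the 10 differences kept their sign. The 10 probes were chosen by their p on these same arrays. Kept signs here and without slide 1 were thus nearly fixed in advance and give no separate support. Leaving out F1 pig 3 left 2 of the 10 calls, and leaving out slides 2, 3, 4 or 5 left 5, 2, 3 and 2. F1 pig 1 stood apart from the other F1 pigs in markers of nerve: the mean of 14 nerve and Schwann cell genes was 11.98 against 10.47 to 10.93 in the other 5. It was the highest of the 6 pigs at 11 of the 14 genes, among them PRPH, a neuronal filament, at 11.85 and NGFR, the nerve growth factor receptor, at 12.83, and the lowest at 2, the Schwann cell genes SOX10 (12.82) and ERBB3 (12.31). Without that pig 23 probes passed, among them all 10, and the part of nerve tissue in any other value was not tested.

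The 6 F1 pigs and the 12 parental pigs can also be compared without a model, by asking where the F1 values lie entirely to one side. This was so at 7 probes above the parents (0.0154%) and 8 below (0.0176%). TAC3, which encodes the precursor of neurokinin B, was among those above. It ran from 8.14 to 9.71 in the cross with a median of 8.33, from 7.62 to 8 in CR and from 6.58 to 7.67 in LW pigs, with F1 pig 4 at 9.71 and the other 5 at or below 8.42. The difference was 1.02 (SE 0.195), short of the FDR (limma adjusted p = 0.105), and 0.78 without F1 pig 4 (adjusted p = 0.0519). In heat-exposed pigs TAC3 passed the FDR, with a difference of 0.95 (limma adjusted p = 0.0125). RefSeq places the gene at chr5:22324927-22336464.

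The others above all parental pigs were the ZNF642 probe, an unnamed probe, VPS26B, IFNAR1 and both separated probes of AARS. VPS26B, a subunit of the retromer that sorts endosomal cargo, differed by 0.44 (limma adjusted p = 0.156). IFNAR1, a chain of the type I interferon receptor, differed by 0.18 (adjusted p = 0.241). AARS, the alanyl-tRNA synthetase, ran from 14.57 to 14.75 in the cross at one probe and from 14.64 to 14.77 at the other, and its highest parental pigs stood at 14.48 and 14.58. Its differences were 0.37 and 0.34 (adjusted p = 0.225 at both). VPS26B, IFNAR1 and AARS were chosen after their values were seen, and in heat-exposed pigs their differences were 0.15, 0.02, and 0.09 and 0.04.

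FAM210B, a mitochondrial protein of erythroid iron metabolism, was the named gene with the lowest p among those below all parental pigs and short of the FDR. It ran from 12.02 to 12.59 in the cross, from 12.7 to 13.26 in LW and from 12.65 to 13.2 in CR pigs. The difference was -0.53 (SE 0.0982, limma adjusted p = 0.0818), it had the same sign at all 4 FAM210B probes, and in heat-exposed pigs it was -0.32 (unadjusted p = 0.0118). The remaining separated probes below the parents were TC622518, BZW1, TC602231, TC548906, TC533634, an unnamed probe and an expressed sequence tag.

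Only MLKL and PNPLA3 passed the FDR by the brightest probe of each of the 10405 named genes (0.0192%), and the genes that follow, those of lowest p in each direction, did not. On the higher side, PLPPR5, a membrane protein of the lipid phosphatase-related family, had a difference of 2.58 (SE 0.554, adjusted p = 0.165). It ran from 6.77 to 11.15 in the cross, where pig 4 was lowest and the next stood at 9.76, from 6.66 to 9.9 in LW and from 6.01 to 6.74 in CR pigs. Without F1 pig 4 the PLPPR5 difference was 3.16 (limma adjusted p = 0.024). ELAC2, which trims the 3′ ends of tRNAs, differed by 0.34, USB1, which trims U6 RNA, by 0.37, and LSM6, a ring subunit that binds U6 RNA, by 0.39. COG4, of the Golgi tethering complex, differed by 0.28 and ALMS1, a centrosomal protein, by 0.21. AKR1E2, an aldo-keto reductase, differed by 1.17 and CHST9, a sulfotransferase, by 0.79, with its probe well above background in 4 of the 6 LW pigs. The adjusted p of these genes lay between 0.156 and 0.203. USB1 had that difference at 1 of its 3 probes, the other two giving -0.05 and 0.01, and the dimmer COG4 probe gave 0.05. In heat-exposed pigs PLPPR5 gave 0.19, ELAC2 0.07, LSM6 -0.03, COG4 0.08 and ALMS1 0.09, while USB1 gave 0.30, AKR1E2 0.71 and CHST9 0.66.

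CYP1A2, EFHD1 and PLAGL1, also among the higher genes, passed the FDR against CR and not against LW pigs. So did LSM6, USB1, PLPPR5 and AKR1E2 of the preceding paragraph. Their limma adjusted p was 0.0125, 0.0168, 0.0264 and 0.0484 against CR pigs and 0.472, 0.472, 0.326 and 0.262 against LW pigs. CYP1A2, a cytochrome P450 of xenobiotic and oestrogen metabolism, ran from 8.53 to 9.11 in the cross, from 8.61 to 9.3 in LW and from 7.53 to 8.26 in CR pigs. The cross differed from CR pigs by 1.15 (limma adjusted p = 0.000535) and from LW pigs by -0.12 (adjusted p = 0.825). EFHD1, a mitochondrial calcium-binding protein, ran from 9.36 to 9.76 in the cross, from 9.19 to 10.31 in LW and from 6.57 to 8.62 in CR pigs, and differed from CR pigs by 1.98 (adjusted p = 0.00194). PLAGL1, an imprinted zinc finger gene, differed from CR pigs by 0.48 (adjusted p = 0.0179) and from LW pigs by 0.20 (adjusted p = 0.473), and 4 of the 6 F1 pigs lay above every LW pig. Against the mid-parent value CYP1A2 differed by 0.51, EFHD1 by 1.04 and PLAGL1 by 0.34, each with an adjusted p of 0.166. In heat-exposed pigs these differences were -0.04, 0.79 and 0.14.

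On the lower side, PCOLCE, which enhances the trimming of procollagen, ran from 13.85 to 14.31 in the cross, from 14.42 to 14.84 in LW and from 13.99 to 14.67 in CR pigs, a difference of -0.50 (SE 0.106, limma adjusted p = 0.165). MRC2, a receptor that takes up collagen, differed by -0.44 (adjusted p = 0.129). ALOX15 and ALOX12, lipoxygenases encoded near each other on chromosome 12, differed by -0.37 and -0.31 (adjusted p = 0.156 and 0.179). Their probes gave nearly the same values, from 8.83 to 9.14 and from 8.83 to 9.07 in the cross. In LW pigs they ran from 9.18 to 9.65 and 9.09 to 9.52, and in CR pigs from 9 to 9.52 and 9.02 to 9.39. Whether these probes read separate transcripts was not tested, so they are not independent results. SFRP2, a secreted Wnt modulator, was lower in LW than in CR pigs (LW minus CR -0.53, adjusted p = 0.00866), and the cross, at 6.32 to 6.73, lay with LW pigs at 6.47 to 6.75 and differed from CR pigs by -0.67 (adjusted p = 0.00537). LAD1 (-0.46), CHIT1 (-0.42), TMEM52B (-0.92) and OSR1 (-0.41) had adjusted p between 0.156 and 0.197. The other two ALOX12 probes gave -0.86 and 0.11. In heat-exposed pigs PCOLCE gave 0.03, MRC2 -0.06, ALOX15 -0.06, ALOX12 -0.09, SFRP2 0.05, TMEM52B -0.07 and OSR1 0.02, while LAD1 gave -0.22 and CHIT1 -0.23 (unadjusted p = 0.0743 and 0.0595).

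The parental differences give the other view of the cross, since at those probes a position between the parents can be measured. On a scale where 0 is the CR mean and 1 the LW mean, the cross had a median position of 0.607 over the 1561 probes, with quartiles of 0.409 and 0.782. It lay between the parental means at 1416 probes (90.7%), beyond LW at 98 and beyond CR at 47. It was nearer LW at 1001 probes (64.1%) and nearer CR at 560. The cross passed the FDR against CR pigs at 192 of these probes and against LW pigs at 13, and against the mid-parent value at 3. The median size of the parental difference was 0.579 on the log2 scale there and that of the cross minus the mid-parent value 0.114, compared with 0.0655 over all probes.

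The position varied between pigs of the cross. The 6 medians were 0.594, 0.765, 0.77, 0.46, 0.451 and 0.585 for F1 pigs 1 to 6, so that 2 pigs lay just below the middle and the highest 2 at 0.765 and 0.77. LW and CR pigs at 24 °C define the scale. Heat-exposed F1 pigs, on the same probes and scale, lay between 0.236 and 0.629, heat-exposed LW pigs between 0.711 and 0.942 and heat-exposed CR pigs between -0.032 and 0.241. The parental difference had the same sign in heat-exposed pigs at 1516 of the 1561 probes. The mean of the heat-exposed pigs was 0.434 in the cross, 0.845 in LW and 0.0868 in CR, so that heat-exposed F1 pigs stood slightly below the midpoint of their own parents, 0.466, and the lean towards LW was not seen in them. No test was made of the lean at 24 °C, where the F1 mean was 0.604. On unlogged levels the median position over the 1561 probes at 24 °C was 0.593.

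**Figure D2:**
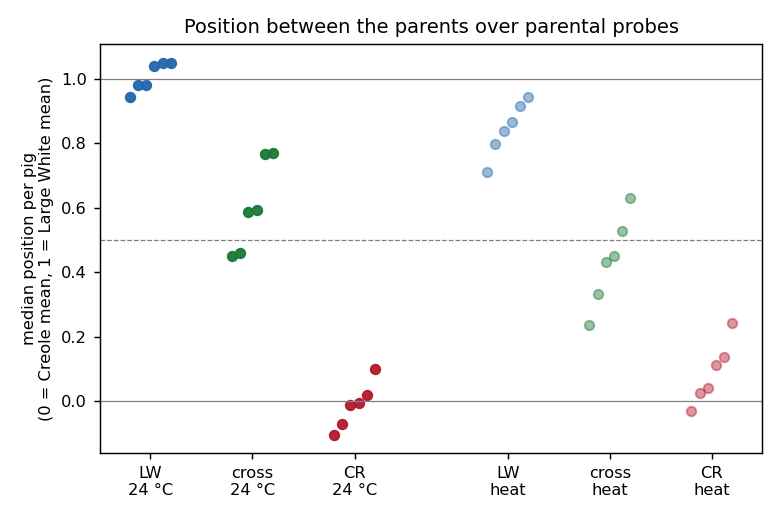
Median position of each pig over the 1561 probes that differed between the parents at 24 °C, on a scale with the Creole mean at 0, the Large White mean at 1 and the mid-parent value dashed. The 6 F1 pigs at 24 °C lie between 0.451 and 0.77, and the heat-exposed F1 pigs, paler, between 0.236 and 0.629.

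Named genes were found on the whole range of positions. Of 352 genes whose brightest probe differed between the parents (3.38% of 10405), the cross lay between the parental means at 322. It was at or above 0.75 of the way to LW at 92, at or below 0.25 at 43, and in the range between at 217. It passed the FDR against CR and not LW pigs at 45 of these genes and against LW and not CR pigs at 5, and at the remaining 302 against neither. The examples in the following paragraphs were chosen after their values were seen, from the genes of lowest p between the parents and those where the cross passed against 1 parent.

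KIT, the receptor tyrosine kinase whose duplicated gene underlies dominant white coat colour in pigs, lay at the middle. It ran from 11.1 to 11.44 in the cross, from 11.85 to 12.48 in LW and from 10.07 to 11.02 in CR pigs, so that the 3 groups did not overlap. LW and CR pigs differed by 1.64 (SE 0.146, limma adjusted p = 7.71e-06), and the cross minus the mid-parent value was 0.06 with a 95% interval from -0.21 to 0.32. The position was 0.501 to 0.572 over the 5 KIT probes, at all of which the parents differed. RefSeq places KIT at chr8:41402334-41492306. In heat-exposed pigs the parental difference of KIT was 1.74 and the cross minus the mid-parent value -0.14.

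EPHX2, HSD3B1 and MGST2 also had means near the middle. EPHX2, a soluble epoxide hydrolase, was higher in CR pigs (LW minus CR -1.31, limma adjusted p = 0.000115), and the cross, from 11.52 to 12.17, overlapped the LW pigs at 10.83 to 11.66 and lay just below the CR pigs at 12.18 to 12.78, at a position of 0.437. The EPHX2 interval of the cross minus the mid-parent value ran from -0.18 to 0.35. HSD3B1, the steroid dehydrogenase that makes progesterone from pregnenolone, was also higher in CR pigs (-0.70, adjusted p = 0.0161), and its position was 0.469 with an interval from -0.25 to 0.30. MGST2, a microsomal glutathione transferase, had a parental difference of -2.41 (adjusted p = 0.00165) and a position of 0.454, with an interval from -0.56 to 0.78. At HSD3B1 and MGST2 these intervals cover much of the space between the parents and do not tell the middle from a lean.

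Near the LW parent lay C1D, PDLIM3, PRPS2, NOV and CRABP1. C1D, a cofactor of the nuclear exosome and the named gene of lowest p between the parents, ran from 10.77 to 11.15 in the cross, from 10.99 to 11.31 in LW and from 10.06 to 10.28 in CR pigs, with a position of 0.787. It differed from CR pigs by 0.76 (limma adjusted p = 0.00014) and from LW pigs by -0.21 (adjusted p = 0.373). PDLIM3, an actin-associated LIM protein of muscle, was low in LW pigs (8.59 to 9.76), low in the cross (8.67 to 10.1) and high in CR pigs (10.06 to 13.36). The position was 0.915 to 1.136 over its 10 probes, the cross differed from CR pigs by -2.87 (adjusted p = 0.00205), and the departure from the mid-parent value was -1.33 (SE 0.339, adjusted p = 0.225). The PDLIM3 departure was -0.12 in heat-exposed pigs, where the parents differed by -3.36. CRABP1, which binds retinoic acid, had a position of 0.849 to 0.925 over 3 probes and differed from CR pigs by -3.12 (adjusted p = 0.0463). NOV, a secreted matricellular protein, lay at 0.964 and PRPS2, which makes the ribose phosphate donor of nucleotide synthesis, at 0.935.

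Near the CR parent lay GLRX, CNTN3, PENK and SUCLG2, which with PNPLA3 are the 5 genes that passed the FDR against LW and not CR pigs. GLRX, a glutaredoxin that reduces protein thiols, ran from 8.57 to 9.79 in the cross, from 8.43 to 9.45 in CR and from 9.71 to 10.63 in LW pigs, and differed from LW pigs by -1.25 (limma adjusted p = 0.0403). CNTN3, a neural adhesion protein, ran from 6.48 to 7.1 in the cross, from 6.3 to 6.51 in CR and from 6.99 to 8.3 in LW pigs (cross minus LW -1.13, adjusted p = 0.0474). PENK, the enkephalin precursor of chromaffin cells, ran from 14.98 to 15.74 in the cross and from 14.82 to 15.58 in CR pigs, below all LW pigs at 15.95 to 16.18. PENK differed from LW pigs by -0.81 (adjusted p = 0.0474), at a position of 0.052. SUCLG2, a subunit of succinyl-CoA synthetase, was higher in CR than in LW pigs, and the cross lay with CR pigs at a position of 0.138 (cross minus LW 0.46, adjusted p = 0.0474). Against the mid-parent value none of GLRX, CNTN3, PENK and SUCLG2 passed, with limma adjusted p from 0.368 to 0.549.

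**Figure D3:**
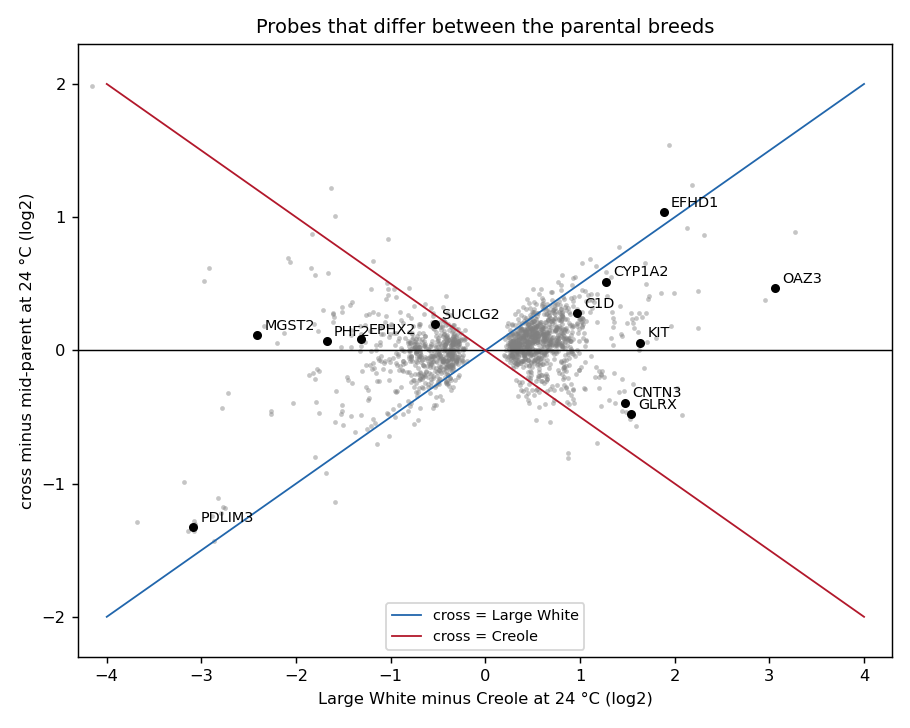
Cross minus mid-parent value against Large White minus Creole, both on the log2 scale at 24 °C, for the 1561 probes that differed between the parents (points), with 12 genes named. Points on the blue line have the cross at the Large White mean, points on the red line at the Creole mean, and points on the horizontal line at the mid-parent value, where KIT lies.

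Gene lists of the adrenal gland were then described by their members, each gene by its brightest probe. In 28 lists, 0 members passed the FDR against the mid-parent value by limma, and the counts that follow are of genes at an unadjusted p under 0.05. Over all 10405 genes those counts were 395 higher (3.8%) and 413 lower (3.97%), with a median difference of 0.00116.

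Collagens and stromal genes had the lowest median of the 28 lists, except with slide as a fixed block, where the leukocyte list was lower (-0.25 against -0.198). Of 22 such genes, all measured, 19 had a difference below 0 and 10 had an unadjusted p under 0.05, all 10 lower, with a median difference of -0.217. COL6A3, a chain of type VI collagen, ran from 10.09 to 11.21 in the cross with a median of 10.4, from 10.75 to 11.51 in LW and from 10.85 to 11.18 in CR pigs (difference -0.56, SE 0.143, limma adjusted p = 0.225). COL1A1 and COL3A1, the main fibrillar collagens, had differences of -0.49 and -0.42 (adjusted p = 0.38 and 0.437), and the matrix protein SPARC -0.24 (adjusted p = 0.384). The groups overlapped at each of these genes. COL6A1 was the member where the cross passed against a parent, at -0.46 from CR pigs (adjusted p = 0.025) and -0.07 from LW pigs (adjusted p = 0.844). POSTN, periostin, went the other way at 1.04 (SE 0.879) with a range of 6.87 to 13.61 among LW pigs alone.

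The mean level of the collagen and stromal list was 11.61 to 11.89 in the cross, 11.55 to 12.05 in LW and 11.77 to 12.1 in CR pigs, so the groups overlapped. In heat-exposed pigs the list had a median difference of -0.0177, with 0 genes lower and 1 higher at an unadjusted p under 0.05. Without F1 pig 1 the median at 24 °C was -0.266, with 12 genes lower and 1 of them past the FDR, and with slide as a fixed block 6 genes were lower. Skeletal muscle genes, which the gland should not hold, also lay low in the cross, where 13 of 16 had a difference below 0. At an unadjusted p under 0.05, 4 were lower: MYH2, MYH4, NEB and TNNT3. All 4 were dim, at 5.42 to 6.71 in the groups at 24 °C. The mean level of the muscle list was 8.049 to 8.167 in the cross, 8.167 to 8.286 in LW and 8.063 to 8.246 in CR pigs. After heat the muscle list had a median difference of 0.166 with 1 gene higher and 0 lower, and its mean level was 8.187 to 9.721 in the cross and 8.17 to 8.416 in LW pigs. With slide as a fixed block or with normexp 1 skeletal muscle gene was lower. The part of attached tissue in the stromal values was not tested.

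Leukocyte genes were below the mid-parent value at 24 of 25 members, with a median difference of -0.164, although only 3 had an unadjusted p under 0.05, and 1 without F1 pig 1. The median difference was -0.299 from LW pigs and -0.0215 from CR pigs. C1QB, a chain of the complement component made by macrophages, ran from 12.87 to 13.35 in the cross, from 12.79 to 13.67 in CR and from 13.32 to 13.9 in LW pigs (difference -0.30, limma adjusted p = 0.581). C1QA and C1QC were higher in LW than in CR pigs by 0.73 and 0.70 (adjusted p = 0.0299 and 0.0258), as was CD3D, a chain of the T-cell receptor complex, by 0.85 (adjusted p = 0.0373). The other two members of lowest p were the B-cell genes CD79B (-0.30) and MS4A1 (-0.15). In heat-exposed pigs the median of the leukocyte list was -0.253 and 11 members were lower at an unadjusted p under 0.05.

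Interferon-stimulated genes leaned the other way and towards the LW parent. Of 33 measured members, 28 had a difference above 0 and 3 an unadjusted p under 0.05 (1 without F1 pig 1), with a median of 0.149. The median difference was -0.0466 from LW pigs and 0.331 from CR pigs. DDX58, the RIG-I sensor of viral RNA, ran from 7.59 to 8.19 in the cross, from 7.84 to 8.1 in LW and from 7.19 to 7.75 in CR pigs, and differed from CR pigs by 0.46 (limma adjusted p = 0.0487). XAF1, a pro-apoptotic interferon target, differed from CR pigs by 1.35 (adjusted p = 0.0349) and from LW pigs by -0.35 (adjusted p = 0.745). USP18, which restrains interferon signalling, and IRF9, which carries it to the nucleus, had differences of 0.50 and 0.25 from the mid-parent value (adjusted p = 0.556 and 0.6). In heat-exposed pigs the median was 0.103, with 0 members higher and 1 lower at an unadjusted p under 0.05.

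**Figure D4:**
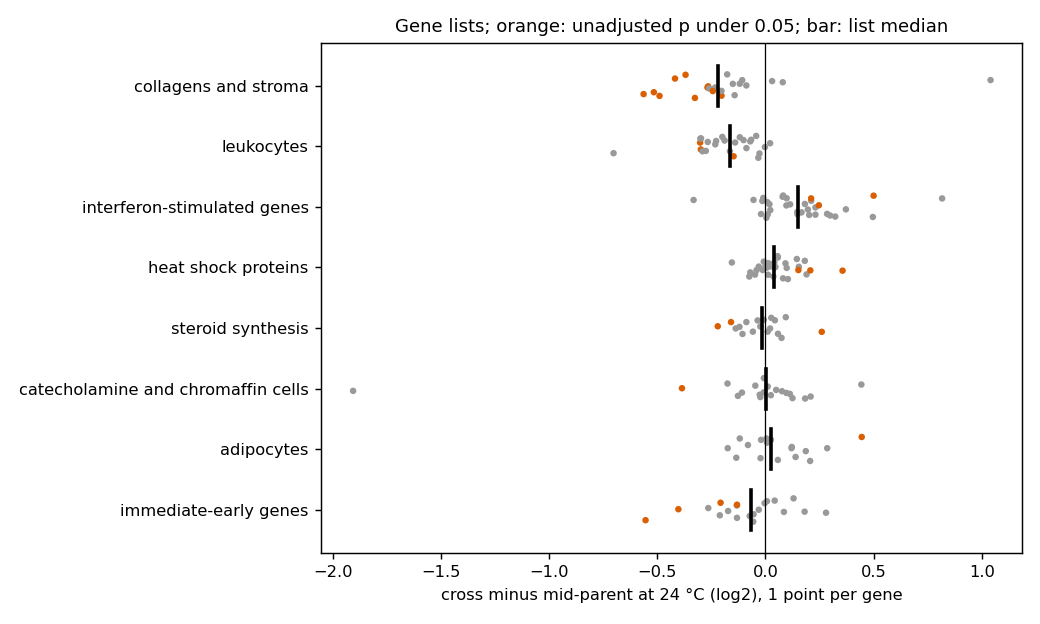
Cross minus mid-parent value at 24 °C on the log2 scale for the members of 8 gene lists, with 1 point per gene, the list median as a bar, and genes of unadjusted p under 0.05 in orange. Medians run from -0.217 for collagens and stroma to 0.149 for interferon-stimulated genes, against 0.00116 for all genes, and 0 of the members pass the FDR.

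Cortical gene lists had small medians with members on both sides. Of 18 steroid synthesis genes measured, 1 was higher and 2 lower at an unadjusted p under 0.05, and the median was -0.0152 with a range from -0.22 to 0.26. TSPO, the outer mitochondrial membrane protein linked to cholesterol import, ran from 12.62 to 13.09 in the cross, below all LW pigs at 13.14 to 13.28 and overlapping CR pigs at 12.85 to 13.11 (difference -0.22, limma adjusted p = 0.323). AKR1C1, which reduces progesterone, had a difference of 0.26 and HSD11B1, which regenerates cortisol, -0.16 (adjusted p = 0.447 and 0.557). Of 30 genes of cholesterol synthesis and handling, 0 had an unadjusted p under 0.05 in either direction and the median was 0.0012. NPC2 and SOAT1, which move and esterify cholesterol, were higher in CR than in LW pigs (LW minus CR -0.47 and -0.65), and the cross departed from the mid-parent value by -0.06 and -0.12. Of 22 genes of ACTH signalling and adrenal transcription factors, NR4A3 (0.64) and NR4A2 (-0.41), orphan nuclear receptors, were the 2 at an unadjusted p under 0.05, with opposite signs. The 7 genes of the zona glomerulosa and aldosterone list measured had a median of -0.0114 and 0 at that p.

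Several medullary genes differed between the parents. Of 20 genes of catecholamine synthesis and chromaffin cells, 6 were higher in LW than in CR pigs past the FDR, against 2.03% of all 10405 genes: PENK, the granins SCG2, SCG3 and CHGB, the prohormone convertase PCSK1 and the transcription factor HAND2. Against the mid-parent value the list had a median of 0.00214, and PENK was its 1 member at an unadjusted p under 0.05 (difference -0.39, limma adjusted p = 0.368). With slide as a fixed block 3 members were higher at that p. SCG2 ran from 12.96 to 13.54 in the cross, below all LW pigs at 13.72 to 14.27 and overlapping CR pigs at 12.31 to 13.35. Its difference from the mid-parent value was -0.17, whereas HAND2 gave 0.11 and CHGB 0.08. NPY, a co-transmitter of chromaffin cells, had the widest spread, from 6.16 to 13.94 among F1 pigs.

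At 6 adipocyte genes the mean of the cross lay between those of the parents. ADIPOQ, CD36, FABP4, GPD1, CIDEA and PLIN1, which mark fat storage, were higher in CR than in LW pigs past the FDR, against 1.36% of all genes, and their departures from the mid-parent value lay between -0.02 for PLIN1 and 0.29 for ADIPOQ. Their list of 17 genes had a median of 0.0262, and LPL, the lipase that frees fatty acids from lipoproteins, was the member at an unadjusted p under 0.05 (0.45, limma adjusted p = 0.599).

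Stress and regulatory lists gave small medians. Among 32 heat shock genes, 24 had a difference above 0 with a median of 0.0396, and HSF2, a heat shock transcription factor, ran from 7.09 to 7.27 in the cross against 6.99 to 7.07 in LW and 6.92 to 7.21 in CR pigs (0.15, limma adjusted p = 0.341). HSPH1 (0.36) and BAG3 (0.21), a chaperone and a cochaperone, followed. Of 20 immediate-early genes, whose transcription rises within minutes of a stimulus, 4 were lower at an unadjusted p under 0.05: KLF4 (-0.40), KLF2 (-0.21), EGR3 (-0.13) and FOS (-0.55). FOS ran from 12.35 to 13.54 in the cross and up to 14.28 in LW pigs, and EGR3 was dim, at 5.34 to 5.7 in the groups at 24 °C. The immediate-early list had a median of -0.0639 at 24 °C and 0.00217 in heat-exposed pigs, where 0 of its genes had an unadjusted p under 0.05. With slide as a fixed block 1 immediate-early gene was lower at 24 °C, and 5 heat shock genes were higher.

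Imprinted genes, which are expressed from the allele of 1 parent, were kept as a list of 29, of which 23 were measured. PLAGL1 and MEG3, a maternally expressed long RNA, were the 2 members at an unadjusted p under 0.05, with differences of 0.34 and 0.67 (limma adjusted p = 0.166 and 0.531). IGF2, PEG10 and NAP1L5 were higher in LW and KCNQ1 in CR pigs past the FDR. At IGF2, the fetal growth factor, LW and CR pigs differed by 0.86 (adjusted p = 0.0452) and the cross, from 13.41 to 14.73, departed from the mid-parent value by 0.17. Which breed was the mother of the cross is not stated by the array labels.

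Antigen presentation held SLA-6, a class I gene of the pig MHC, which ran from 7.79 to 8.89 in the cross, from 8.4 to 9.24 in LW and from 8.62 to 9.22 in CR pigs (difference -0.54, SE 0.143, limma adjusted p = 0.253). In heat-exposed pigs SLA-6 had a difference of -0.96 at an unadjusted limma p of 2.12e-06. It passed the FDR there, as TAC3 did at a larger p of 3.46e-06 (limma adjusted p = 0.0125). MHC class I genes share sequence and vary between haplotypes, so this probe may not read 1 gene alone. PSMB8, a subunit of the immunoproteasome, had a difference of 0.60 (adjusted p = 0.56), and the 25 genes measured had a median of -0.0725.

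The remaining lists held few or no genes at an unadjusted p under 0.05. Cytosolic ribosomal proteins had 1 of 69 (RPS23, 0.25), oxidative phosphorylation 2 of 53 (UQCRC2, 0.30, and NDUFB11, -0.18), and the proteasome 0 of 30 and the circadian clock 0 of 17. Of 38 antioxidant and glutathione genes 2 were higher, PRDX6 (0.14) and PRDX5 (0.11), both peroxiredoxins, and PRDX5 differed from CR pigs by 0.23 (limma adjusted p = 0.0378). Of 34 genes of glycolysis and the citric acid cycle, SUCLG2 (0.19) and TPI1 (0.29) were higher and PDHA1 (-0.39) lower. AURKA (-0.21) stood alone among 27 cell cycle genes, 22 of which had a difference below 0, and ERN1 (0.20) among 22 genes of endoplasmic reticulum folding. Of 16 glucocorticoid receptors and targets, SESN1 (-0.29), KLF9 (-0.19) and MT1A (1.26) had an unadjusted p under 0.05. KDR, the endothelial VEGF receptor, was the 1 of 13 endothelial genes at that p (0.31) and differed from CR pigs by 0.71 (adjusted p = 0.0315). The insulin-like growth factor axis, red blood cell genes and genes of kidney and liver had 0 of 16, 0 of 9 and 0 of 7, and nerve genes 1 of 14 (NEFM, 0.71). The nerve list turned on F1 pig 1: its median was -0.00491 with that pig and -0.19 without it, where 0 genes were higher and 5 lower at an unadjusted p under 0.05.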

How the data were processed

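Total RNA from adrenal tissue was labelled with Cy3 and hybridised to 1-colour Agilent porcine arrays, and the authors extracted intensity values with Feature Extraction 10.10.1.1, per the submitters' processing notes. The deposited table of the authors holds log2 values of 45348 probes on 36 arrays, which matched the median pixel intensity after quantile normalization (median absolute difference 0.00698 from the same steps run on the deposited scanner intensity values). It held 0 columns of other samples and was used as deposited, while the scanner intensity values served for alternatives and for background calls. Between 41989 and 45112 of these 45348 probes were well above background on each array at 24 °C, and 18 pigs limit the precision.

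Probes were named by symbol, accession or gene number through RefSeq tables of Sscrofa11.1, which gave 22753 probes of 10405 genes. Unnamed were 22595, 199 of them antisense. Accessions were matched without versions. A gene was represented by its probe of highest mean.

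Groups were taken from the sample titles. Tests used limma 3.58.1 (lmFit and eBayes, statmod 1.5.0) in R 4.3.3 with 1 mean per group over 18 arrays and Benjamini-Hochberg adjustment at 0.05. The contrasts were cross minus mid-parent, Large White minus Creole and cross minus each parent, and those of heat-exposed pigs were fitted on their own arrays. The random effects of the study's model (pen, day of slaughter, father and mother) are not given with the arrays. Genes named are up to 12 per direction among those past the threshold, filled by lowest p, genes outside both parents, and per list the members past the threshold or else up to 3 of lowest p; other names were chosen after their values were seen. Members and lists were chosen with earlier results of these data known.

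On simulated data of 45348 probes, the mid-parent test recovered 71% of 100 probes changed by 0.5 and 96% of 100 changed by 1 on the log2 scale, with 5 false calls. The simulation drew independent normal noise for each pig around 1 mean per probe. It had no litter or slide effect and no parental difference, so these figures check the code and are not the power of the real comparison. Alternatives were the scanner's median intensity, processed signal scaled by the 75th percentile, normexp with an offset of 50, median centring, a filter on dim probes, all 36 arrays, slide or row as a block, array weights, another variance prior, other thresholds, the mean of all probes of a gene, and each slide or pig left out. A mid-parent value from unlogged group means was added after seeing the data.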

Additional observations from a re-analysis of the deposited data

Results flagged for a closer look

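In groups of 6 pigs, a highest or lowest pig was set apart where its gap to the next was over 0.625 of the range of its group. Of 132 groups tested (44 quantities in 3 groups at 24 °C), 19 had such a pig, and chance sets apart about 1 in 20 groups. The quantities share pigs and were partly chosen for their differences.

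Among the called probes, LW pig 4 stood at 6.869 for MLKL against 8.098 to 8.677 in the other 5 and at 7.338 for TC612827 against 8.57 to 9.078, and the same pig had the brightest array of its group, with a median raw intensity of 180.5 against 149.0 to 157.5. F1 pig 5 stood at 8.831 for A_72_P118156 against 9.993 to 10.36.

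Among genes short of the threshold, F1 pig 4 was highest for TAC3 at 9.705 and lowest for PLPPR5 at 6.774. F1 pig 5 was lowest for CYP1A2 at 8.53 and highest for PCOLCE at 14.31, and F1 pig 3 was lowest for AKR1E2 at 9.239. LW pig 6 was lowest for CYP1A2 at 8.607, MRC2 at 10.43 and ALOX12 at 9.085. LW pig 4 was highest for AKR1E2 at 10.64, LW pig 2 highest for CHST9 at 6.273, and CR pig 2 lowest for ALMS1 at 10.75.

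Among marker lists, F1 pig 1 had a mean log2 level of 11.98 for nerve and Schwann cell genes against 10.47 to 10.93 in the other 5, and of 9.071 for kidney and liver genes against 8.128 to 8.418. F1 pig 3 had 7.985 for red blood cell genes against 7.59 to 7.684, and CR pig 2 had 8.063 for skeletal muscle genes against 8.179 to 8.246.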

How the results depend on the processing

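With the scanner's median intensity, the processed signal, normexp, median centring, the dim-probe filter, the row block or the trend and robust prior, the counts of probes past the threshold stayed within 1.5 times of 10 against the mid-parent value, 1561 between the parents and 4 outside both, and 7 to 10 of the 10 calls remained under the first 4 of these settings. No difference reversed among the 10 called probes and the 22 other genes of lowest p, all of them chosen on these same arrays. The remaining named genes were not run under these alternatives one by one. The counts against the mid-parent value, between the parents and outside both parents were 2, 815 and 0 with slide as a fixed block, 0, 504 and 0 without slide 1 (LW pigs 1 and 2; limma, with 3286 probes at an unadjusted p under 0.05 for the first), and 2, 642 and 2 without slide 3. Without slide 2 the counts between the parents and outside both were 613 and 0. Without slide 5 the counts against the mid-parent value and between the parents were 27 and 930, with 2 of the 10 calls among the 27. They were 21, 2688 and 17 at an FDR of 0.1, and 0, 396 and 0 at 0.01. The count outside both was 2 in the fit of all 36 arrays, 7 with slide as a random block and 11 with array weights. Without both F1 pig 1 and slide 1, chosen after seeing the data, the counts were 3, 502 and 0, with 2 of the 10 calls. With 1 pig left out in turn they lay between 2 and 25, 946 and 1629, and 0 and 12. The count against the mid-parent value was highest without CR pig 6 (25), F1 pig 1 (23), CR pig 4 (20) and CR pig 2 (16), and lowest without F1 pig 3 (2), LW pigs 1 and 5 (5 each), and LW pigs 3 and 4 and F1 pigs 2 and 6 (6 each). The parental count was 946 without CR pig 3. The count outside both was 0 without any of LW pigs 1, 2, 3, 5 and 6, CR pig 3 or F1 pigs 1, 2 and 3, 1 without CR pig 1 or F1 pig 6, 2 without F1 pig 4, 8 without F1 pig 5 and 12 without CR pig 4 (9 above and 3 below). In heat-exposed pigs the count lay between 6 and 28 (6 without F1 pig 5 or 6, 7 without F1 pig 1, 9 without F1 pig 4), and for the difference between temperatures between 0 and 1 (1 without heat-exposed CR pig 2, or without CR pig 5 or LW pig 5 or 6 of the 24 °C groups). The cause of these shifts was not tested. No paired analysis was possible because the titles carry no replicate numbers shared between groups, and slide served as the block instead. With the mean of all probes of a gene, 1 of the called genes, MLKL, passed and PNPLA3 did not. Of the 28 gene lists, 7 changed the sign of their median under at least 1 of 6 alternatives: steroid synthesis, cholesterol, zona glomerulosa, glucocorticoid targets, circadian clock, the insulin-like growth factor axis and nerve. The median of the collagen and stromal list ranged from -0.266 to -0.198.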
